A study of Mus musculus with 8 samples.

Results

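Collagen, extracellular matrix and hepatic stellate cell genes were followed as a set of 40 among 24532 genes. They were picked by symbol, for what they encode, and with earlier results of these data known. All 40 were found, 1 of them (Ctgf) under its newer symbol Ccn2. RNA from liver and subcutaneous fat of male C57BL/6 mice was sequenced in 8 libraries, 2 for each combination of genotype (WT or MKRN1 KO, called MKRN1-null here) and tissue. All mice received a high-fat diet (HFD) from an age of 6 weeks for 19 weeks, and their age is given as 24 weeks. The deletion of MKRN1, an E3 ubiquitin ligase, is carried in every cell of the mouse, and the WT animals were littermates on the same diet. No chow-fed group is among the samples, so every difference below is between genotypes on HFD.

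Collagens are the main proteins of the extracellular matrix. Fibrillar collagens form the tensile fibres that accumulate in a scarred liver, basement membrane collagens form sheets beneath epithelium, endothelium and adipocytes, and the remaining members coat, crosslink, cut or protect these fibres. In the liver the hepatic stellate cell is the main producer of fibrillar collagen. It stores vitamin A while quiescent, and on activation by signals such as TGF-beta and PDGF it takes on features of a myofibroblast, with smooth muscle actin and abundant collagen. In fat the same genes are used by fibroblasts, preadipocytes, vessel wall cells and, for the basement membrane, adipocytes themselves.

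Values are FPKM, fragments per length of transcript and per sequencing depth, summed over the transcripts of a gene, so levels can be compared between genes. Fold changes are differences of log2(FPKM + 1) between genotypes, which understate the change of genes at low FPKM, and each is given with its standard error (SE). Genes with at least 1 FPKM in at least 2 of the 4 libraries of a tissue were tested with limma, and adjusted p-values were taken over all genes tested in that tissue. The aligned sequence behind a library was 6.05 to 7.46 Gb in liver and 5.72 to 9.24 Gb in fat. Mkrn1 itself was at 9.42 and 10.1 FPKM in the WT livers and 2.86 and 2.21 FPKM in the MKRN1-null livers (log2 fold change -1.61, SE 0.12, adjusted p = 0.00976), and at 16.8 and 19.3 FPKM in the WT fat libraries and 4.58 and 2.899 FPKM in the MKRN1-null fat libraries (log2 fold change -2.02, SE 0.26, adjusted p = 0.6802), the MKRN1-null libraries being the lowest in both tissues. The fat library MKRN1-null replicate 2 stood apart. In it 11 skeletal muscle markers made up 18.03% of all FPKM, against 0.00718% to 0.0552% in the other 3 fat libraries, and the counts in fat are therefore also given without it.

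In the livers of MKRN1-null mice the matrix genes were lower nearly throughout. Of the 40 members, 37 passed the level filter and 26 of these fell at an adjusted p under 0.05, where 16.9% of all 10822 genes tested fell, and none of the 37 rose, against 2.51% of all genes. Under a second and looser rule, an unadjusted p of at most 0.05 with a log2 change of at least 0.58, 32 members were lower against 13.4% of all genes and none was higher against 2.25%. The median log2 fold change was -1.12 over the 37 members and -0.17 over all genes tested, so most liver genes lay slightly lower in the MKRN1-null libraries and the members lay further down. Both MKRN1-null livers were below both WT livers for 37 of all 40 members. Of the 37 members tested this held for 34, against 57.5% of the genes tested. Because these are whole-tissue RNA samples, fewer cells of a type and less RNA per cell cannot be told apart.

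The filter bears on these counts. Among the 37 members tested, 10 had both MKRN1-null livers under 1 FPKM and so entered the test through the WT livers alone, and 7 of those 10 were among the 26 that fell. The other 27 had at least 1 MKRN1-null liver at 1 FPKM or more, and 19 of them fell. With no filter all 40 members were tested, and 21 fell against 9.13% of 17348 genes, with a median of -1.10. The 26 calls were all lost when the 8 libraries of both tissues shared an estimate of the spread (0 of 37), and 0 of 37 passed without MKRN1-null replicate 2 (0.456% of all genes) and 9 of 37 without MKRN1-null replicate 1 (3.24%), the remaining MKRN1-null library being then assumed to vary like the WT pair. Without WT replicate 1 the filter left 27 members, of which 15 fell (4.11% of all genes) and 20 were lower under the looser rule (9.79%). The median stayed between -1.44 and -0.96 over the fits that left out a liver library. In the fit of all 8 libraries, 164 of all 10822 genes tested fell.

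**Figure D1:**
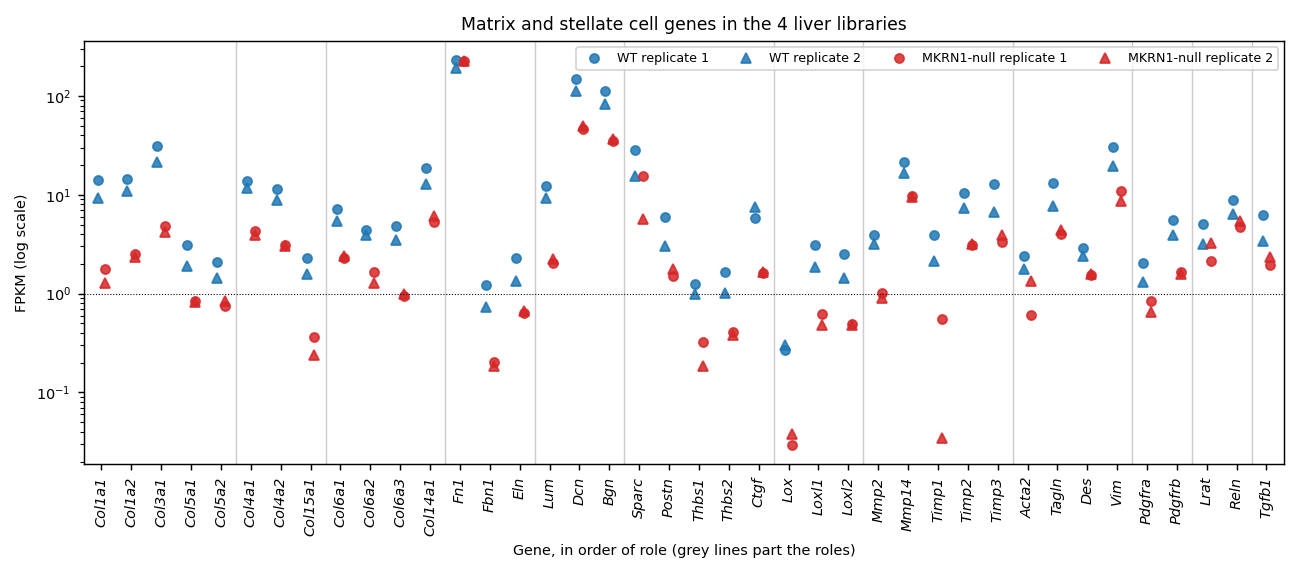
FPKM (log scale) of each of the 40 genes in the 4 liver libraries, with WT in blue, MKRN1-null in red, replicate 1 as circles, replicate 2 as triangles and a dotted line at the filter of 1 FPKM. The red symbols lie below the blue for 37 genes, and overlap them for Fn1, Sparc and Lrat.

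The fibrillar collagens of types I and III had the largest changes on the log2(FPKM + 1) scale. By the ratio of mean FPKM, Timp1 (10.3-fold) and Lox (8.48-fold), both near 0 in an MKRN1-null liver, came before Col1a1. Col1a1 (chr11:94936224-94953042, plus strand in mm10), which encodes the alpha 1 chain of type I collagen, was at 14.04 and 9.24 FPKM in the WT livers and 1.796 and 1.296 FPKM in the MKRN1-null livers, a 7.53-fold lower mean (log2 fold change -2.29, SE 0.22, adjusted p = 0.0122). Col1a2 (chr6:4505618-4541543, plus strand), the partner chain of the type I trimer, was at 14.6 and 10.9 FPKM in the WT livers and 2.49 and 2.33 FPKM in the MKRN1-null livers (log2 fold change -2.0, SE 0.15, adjusted p = 0.00976). Col3a1 (chr1:45311538-45349706, plus strand), the chain of type III collagen that forms fine reticular fibres, was at 31.3 and 21.7 FPKM in the WT livers and 4.83 and 4.16 FPKM in the MKRN1-null livers (log2 fold change -2.30, SE 0.19, adjusted p = 0.0102). In all 3 genes the 2 MKRN1-null livers lay close together and far under the lower WT liver. Type V collagen, which starts and limits the growth of type I fibrils, was less abundant. Its chain Col5a1 was at 3.11 and 1.91 FPKM in the WT livers and 0.842 and 0.828 FPKM in the MKRN1-null livers and fell (log2 fold change -0.91, SE 0.19, adjusted p = 0.03703), and Col5a2 was at 2.09 and 1.43 FPKM in the WT livers and 0.7499 and 0.848 FPKM in the MKRN1-null livers and missed the adjusted threshold (log2 fold change -0.61, SE 0.15, adjusted p = 0.05204). Summed over the 5 genes, fibrillar collagen RNA was at 65.1 and 45.2 FPKM in the WT livers and 10.7 and 9.46 FPKM in the MKRN1-null livers.

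Within a liver the fibrillar chains did not keep quite the same proportions. The ratio of Col1a1 to Col1a2 FPKM was 0.963 and 0.846 in the WT livers and 0.721 and 0.557 in the MKRN1-null livers, while in fat all 4 libraries lay between 0.796 and 0.857. The ratio of Col3a1 to Col1a1 was 2.23 and 2.34 in the WT livers and 2.69 and 3.21 in the MKRN1-null livers. These ratios are descriptions of single libraries and were not tested, and the coverage of Col1a1 in the MKRN1-null livers was 11.3 and 8.46 reads per base.

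All 3 basement membrane collagens fell in the MKRN1-null livers. Col4a1 and Col4a2 encode the chains of the common type IV network. Col4a1 (chr8:11198423-11312826, minus strand) was at 13.7 and 11.8 FPKM in the WT livers and 4.295 and 3.88 FPKM in the MKRN1-null livers (log2 fold change -1.43, SE 0.11, adjusted p = 0.00976). Col4a2 (chr8:11312805-11449287, plus strand) was at 11.4 and 8.82 FPKM in the WT livers and 3.12 and 3.02 FPKM in the MKRN1-null livers (log2 fold change -1.44, SE 0.14, adjusted p = 0.0123). The 2 genes stand head to head on opposite strands and share 22 bases of their annotated first exons, and as the strand setting of the library kit is not given, reads there cannot be told apart. Their ratio stayed between 1.198 and 1.44 in all 8 libraries, both tissues and both genotypes included. Col15a1, a collagen that links basement membranes to the fibres beneath, was lower still in the MKRN1-null livers, at 2.31 and 1.57 FPKM in the WT livers and 0.365 and 0.237 FPKM in the MKRN1-null livers (log2 fold change -1.17, SE 0.16, adjusted p = 0.0188), and was under the filter in both of them.

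All 4 genes of type VI and type XIV collagen fell as well. Type VI collagen forms beaded filaments around cells. Its chains Col6a1 (7.12 and 5.47 against 2.302 and 2.403 FPKM, WT against MKRN1-null), Col6a2 (4.38 and 3.89 against 1.66 and 1.27 FPKM) and Col6a3 (4.84 and 3.46 against 0.951 and 0.9903 FPKM) had log2 fold changes of -1.11, -1.06 and -1.37, with adjusted p-values from 0.0147 to 0.0165. Col14a1, which decorates the surface of fibrils, was the most abundant of the 4 in liver at 18.5 and 12.8 FPKM in the WT livers and 5.26 and 6.09 FPKM in the MKRN1-null livers (log2 fold change -1.30, SE 0.19, adjusted p = 0.0196).

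Fn1 was the exception among the members. It encodes fibronectin, which hepatocytes secrete in large amounts into plasma and which stellate cells and fibroblasts lay down in the matrix. Fn1 (chr1:71585473-71653234, minus strand) was the most abundant member in every liver, at 231 and 191 FPKM in the WT livers and 226 and 227 FPKM in the MKRN1-null livers, with a mean of 211 ± 28.5 against 227 ± 0.442 FPKM (SD, n = 2 each), and it did not pass the test (log2 fold change 0.11, SE 0.12, adjusted p = 0.531). Both MKRN1-null livers lay between the 2 WT livers. The elastic fibre genes sat at the edge of detection. Eln, which encodes elastin, was at 2.32 and 1.35 FPKM in the WT livers and 0.642 and 0.662 FPKM in the MKRN1-null livers and missed the adjusted threshold (log2 fold change -0.76, SE 0.19, adjusted p = 0.05296). Fbn1, the microfibril protein fibrillin-1, was at 1.22 and 0.733 FPKM in the WT livers and 0.201 and 0.184 FPKM in the MKRN1-null livers and was not tested, since it reached 1 FPKM in a single liver.

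The annotation splits Fn1 into 7 transcripts, which differ in 2 whole exons and in the start of another. The extra domain A exon (EDA, chr1:71603660-71603929 in mm10, 270 bases, in 4 of the 7 transcripts) and the extra domain B exon (EDB, chr1:71613763-71614035, 273 bases, in 1 transcript) are left out of plasma fibronectin and kept in part of the fibronectin made by mesenchymal cells. Transcripts with the EDA exon made up 4.71% and 5.49% in the WT and 5.38% and 3.93% in the MKRN1-null livers. In fat the share was 10.9% and 14.3% in the WT and 12.6% and 12.3% in the MKRN1-null libraries, so the ranges of the 2 tissues did not overlap, while those of the 2 genotypes did within each tissue. The amount of EDA-bearing Fn1 was 10.9 and 10.5 FPKM in the WT livers and 12.2 and 8.93 FPKM in the MKRN1-null livers, which also overlap. The form with neither extra domain and the shortest variable region made up 36.3% and 37.2% in the WT and 35.8% and 35.3% in the MKRN1-null livers, but 11.6% and 9.31% in the WT and 10.1% and 10.5% in the MKRN1-null fat libraries. The division between transcripts is the assembler's estimate from shared reads and has no counting error attached, so the shares are given without a test.

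**Figure D2:**
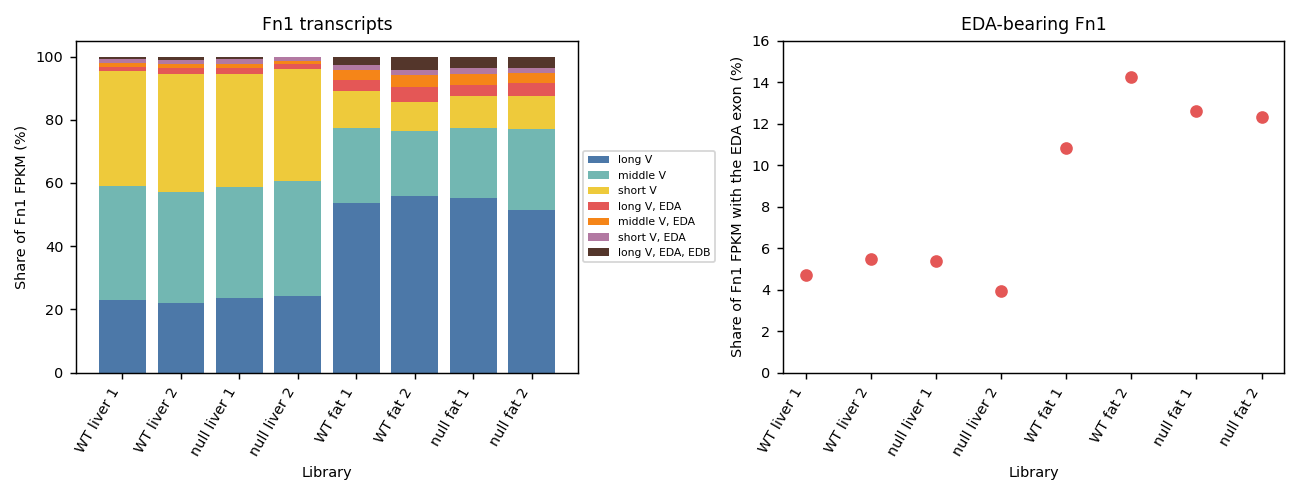
Left, share of Fn1 FPKM (%) assigned to each of 7 annotated transcripts in the 8 libraries (null for MKRN1-null), with transcripts named by the length of their variable (V) region and the extra domain exons they keep. Right, share of Fn1 FPKM (%) on transcripts with the EDA exon, 3.93% to 5.49% in liver and 10.9% to 14.3% in fat, with no separation of genotypes within a tissue.

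All 3 small leucine-rich proteoglycans, which bind collagen fibrils and set their spacing, fell in liver. Lum, which encodes lumican, had the largest change of the 3, at 12.2 and 9.36 FPKM in the WT livers and 2.04 and 2.23 FPKM in the MKRN1-null livers (log2 fold change -1.90, SE 0.14, adjusted p = 0.00976). Dcn, decorin, was at 148 and 111 FPKM in the WT livers and 46.5 and 49.96 FPKM in the MKRN1-null livers (log2 fold change -1.39, SE 0.15, adjusted p = 0.0147). Bgn, biglycan, was at 112 and 82.99 FPKM in the WT livers and 35.4 and 36.7 FPKM in the MKRN1-null livers (log2 fold change -1.40, SE 0.16, adjusted p = 0.0147). Dcn and Bgn were, after Fn1, the most abundant members in liver, and their MKRN1-null replicates lay close together.

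Of the 5 matricellular genes, whose proteins modulate cell behaviour rather than bear load, 2 fell. Ctgf, a TGF-beta target that promotes fibrosis, was at 5.77 and 7.45 FPKM in the WT livers and 1.61 and 1.66 FPKM in the MKRN1-null livers (log2 fold change -1.52, SE 0.14, adjusted p = 0.0109), and unlike most members it was higher in WT replicate 2 than in WT replicate 1. Thbs2, thrombospondin 2, fell at low levels (1.66 and 1.01 against 0.411 and 0.3802 FPKM; -0.73, adjusted p = 0.0435). Postn, periostin, was at 6.01 and 3.01 FPKM in the WT livers and 1.51 and 1.78 FPKM in the MKRN1-null livers and missed the adjusted threshold (log2 fold change -1.0, SE 0.28, adjusted p = 0.066). Sparc, a collagen-binding protein also made by endothelium, was at 28.3 and 15.4 FPKM in the WT livers and 15.6 and 5.73 FPKM in the MKRN1-null livers. Its genotypes overlapped and its SE was the largest of the members tested (log2 fold change -1.05, SE 0.51, adjusted p = 0.192). Thbs1 was not tested (1.25 and 0.995 against 0.322 and 0.187 FPKM).

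The crosslinking enzymes, which join collagen and elastin chains covalently, were weakly expressed in liver. Loxl1 was at 3.08 and 1.86 FPKM in the WT livers and 0.6197 and 0.481 FPKM in the MKRN1-null livers (log2 fold change -1.14, SE 0.20, adjusted p = 0.0265) and Loxl2 at 2.52 and 1.46 FPKM in the WT livers and 0.498 and 0.484 FPKM in the MKRN1-null livers (log2 fold change -0.98, SE 0.19, adjusted p = 0.0343), so that both fell and both entered the test through the WT livers. Lox stayed under 1 FPKM in every liver (0.2703 and 0.302 against 0.0295 and 0.0379 FPKM) and was not tested.

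The remodelling genes comprise 2 collagen-cutting enzymes and 3 of their inhibitors, and 4 of the 5 fell. Mmp2, a gelatinase secreted by mesenchymal cells, was at 3.9 and 3.15 FPKM in the WT livers and 1.02 and 0.901 FPKM in the MKRN1-null livers (log2 fold change -1.20, SE 0.12, adjusted p = 0.0135). Mmp14, the membrane-bound enzyme that activates pro-MMP2, was at 21.5 and 16.5 FPKM in the WT livers and 9.61 and 9.52 FPKM in the MKRN1-null livers (log2 fold change -0.91, SE 0.14, adjusted p = 0.02201). The inhibitor Timp1, which rises in liver injury, showed the lowest value of the group. It was at 3.92 and 2.15 FPKM in the WT livers and 0.554 and 0.0348 FPKM in the MKRN1-null livers (log2 fold change -1.63, SE 0.30, adjusted p = 0.0292), and with a coverage of 0.227 reads per base in MKRN1-null replicate 2 its fold is poorly bounded. Timp2 was at 10.4 and 7.28 FPKM in the WT livers and 3.12 and 3.16 FPKM in the MKRN1-null livers (log2 fold change -1.23, SE 0.17, adjusted p = 0.0188). Timp3, which is bound to the matrix, was at 12.8 and 6.75 FPKM in the WT livers and 3.34 and 3.901 FPKM in the MKRN1-null livers and just missed the adjusted threshold (log2 fold change -1.16, SE 0.29, adjusted p = 0.0521).

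Cytoskeletal genes of stellate cells and myofibroblasts were lower to differing degrees. Vim, vimentin, an intermediate filament of mesenchymal cells in general, was at 30.4 and 19.8 FPKM in the WT livers and 10.8 and 8.68 FPKM in the MKRN1-null livers (log2 fold change -1.25, SE 0.23, adjusted p = 0.02903). Tagln, a calponin-related actin-binding protein, was at 13.1 and 7.66 FPKM in the WT livers and 3.97 and 4.42 FPKM in the MKRN1-null livers (log2 fold change -1.09, SE 0.25, adjusted p = 0.0438), and shares 95 exonic bases with Pcsk7 on the other strand. Des, desmin, had the smallest change among the genes that fell, at 2.898 and 2.39 FPKM in the WT livers and 1.54 and 1.56 FPKM in the MKRN1-null livers (log2 fold change -0.51, SE 0.11, adjusted p = 0.0424), and shares 222 exonic bases with an antisense gene. Acta2, the smooth muscle actin that defines the activated stellate cell, was low in every liver, at 2.42 and 1.76 FPKM in the WT livers and 0.605 and 1.33 FPKM in the MKRN1-null livers, and did not pass (log2 fold change -0.67, SE 0.22, adjusted p = 0.0946).

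Of the PDGF receptors and the genes of the quiescent stellate cell, Pdgfrb alone fell. Pdgfrb, the receptor through which PDGF drives stellate cell growth, was at 5.56 and 3.93 FPKM in the WT livers and 1.65 and 1.58 FPKM in the MKRN1-null livers (log2 fold change -1.12, SE 0.16, adjusted p = 0.0195). Pdgfra, more typical of fibroblasts, was at 2.04 and 1.31 FPKM in the WT livers and 0.838 and 0.6499 FPKM in the MKRN1-null livers (log2 fold change -0.61, SE 0.17, adjusted p = 0.0649). Lrat, which esterifies vitamin A for storage and marks quiescent stellate cells, was at 5.08 and 3.15 FPKM in the WT livers and 2.14 and 3.24 FPKM in the MKRN1-null livers, with overlapping genotypes (log2 fold change -0.46, SE 0.24, adjusted p = 0.225). Reln, reelin, also a stellate cell gene in liver, was at 8.94 and 6.396 FPKM in the WT livers and 4.71 and 5.38 FPKM in the MKRN1-null livers (log2 fold change -0.51, SE 0.17, adjusted p = 0.0954). Neither Lrat nor Reln passed under the looser rule. Tgfb1, the ligand, was at 6.29 and 3.44 FPKM in the WT livers and 1.96 and 2.35 FPKM in the MKRN1-null livers and missed the adjusted threshold (log2 fold change -0.85, SE 0.25, adjusted p = 0.0754).

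The ratio of Col1a1 to Reln and to Lrat within each library puts these differences side by side. Col1a1 stood at 1.57 and 1.44 times the FPKM of Reln in the WT livers and at 0.382 and 0.241 times in the MKRN1-null livers. Against Lrat the same ratio was 2.76 and 2.93 in the WT and 0.839 and 0.4001 in the MKRN1-null livers. The 2 WT libraries, which differ in the absolute level of 38 of the 40 members in the same direction (replicate 1 higher, as for 60.04% of all genes tested), gave nearly the same ratios. Col1a1 was among the members with the largest liver changes (log2 fold change -2.29), and Reln (-0.51) and Lrat (-0.46) among those with the smallest. A lower ratio therefore follows from the choice of genes, and does not stand for stellate cell RNA as a whole. Of other stellate cell markers some fell and others did not pass, as given below. No test was made of these ratios.

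Sequence upstream of the annotated start was at hand for 25 of the 40 members, from RefSeq (GRCm38.p6). Those of Col3a1 (chr1:45311288-45311537, plus strand) and Timp1 (chrX:20869916-20870165, plus strand), which fell, and of Reln (chr5:22344706-22344955, minus strand) and Lrat (chr3:82903975-82904224, minus strand), which did not pass, are shown because they set a collagen and an injury-responsive inhibitor beside the quiescent stellate genes. Each is the 250 bases before the start, 5′ to 3′ in the direction of the gene. Capitals mark short promoter motifs, searched on both strands. The CCAAT letters stand for the box of that name. A GC box was searched as GGGCGG. The TATA box was taken as TATAAA.
Col3a1: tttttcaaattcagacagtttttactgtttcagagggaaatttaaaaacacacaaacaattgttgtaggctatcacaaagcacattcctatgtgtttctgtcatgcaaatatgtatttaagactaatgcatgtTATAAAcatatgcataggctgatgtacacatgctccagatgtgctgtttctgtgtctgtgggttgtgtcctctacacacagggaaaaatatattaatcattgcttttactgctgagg
Timp1: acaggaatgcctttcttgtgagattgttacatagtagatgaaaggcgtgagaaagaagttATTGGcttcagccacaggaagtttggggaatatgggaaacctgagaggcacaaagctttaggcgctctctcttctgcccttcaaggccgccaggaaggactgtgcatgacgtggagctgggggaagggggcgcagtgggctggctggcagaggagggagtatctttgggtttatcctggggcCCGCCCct
Reln: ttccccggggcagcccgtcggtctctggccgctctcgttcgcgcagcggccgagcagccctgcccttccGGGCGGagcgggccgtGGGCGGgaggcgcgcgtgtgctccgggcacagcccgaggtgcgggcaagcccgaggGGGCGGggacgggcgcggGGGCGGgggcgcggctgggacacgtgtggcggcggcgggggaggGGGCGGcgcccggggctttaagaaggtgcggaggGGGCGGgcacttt
Lrat: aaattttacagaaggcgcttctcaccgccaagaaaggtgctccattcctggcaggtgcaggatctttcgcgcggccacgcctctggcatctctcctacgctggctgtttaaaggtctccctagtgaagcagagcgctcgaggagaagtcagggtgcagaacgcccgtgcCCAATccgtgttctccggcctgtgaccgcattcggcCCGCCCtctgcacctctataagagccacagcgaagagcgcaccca

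The 4 windows differ plainly in composition. That of Col3a1 had a G and C content of 35.2% and held 1 TATAAA and neither of the others, whereas that of Reln, at 80%, held 6 copies of GGGCGG. Lrat and Timp1 each held 1 CCAAT and 1 GGGCGG. Among the 25 members with an entry, 9 held CCAAT, 14 held GGGCGG and 4 held TATAAA, and by window the shares were 33.3%, 55.6% and 14.8% of 27, against 33.8%, 32.7% and 12.4% of all 32851 windows of this length. The CArG box, the site of serum response factor, was in none of the 27 and in 1.47% of all. These are matches of letters and were not tested.

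Other genes of the matrix pathway came from 7 lists of 166 genes that hold no member. Of these, 81 were tested in liver, 46 fell and none rose at the adjusted threshold, where 16.9% of all genes fell, and 21 of the 81 entered through the WT livers alone. Among genes for collagen folding and processing 10 of 17 fell. Serpinh1, the collagen chaperone HSP47, was at 16.7 and 12.4 FPKM in the WT livers and 2.804 and 5.95 FPKM in the MKRN1-null livers (log2 fold change -1.59, SE 0.32, adjusted p = 0.0358), Pcolce, the enhancer of procollagen cleavage, was at 12.7 and 9.75 FPKM in the WT livers and 3.56 and 3.76 FPKM in the MKRN1-null livers, and Tgm2, a transglutaminase, was at 83.8 and 67.3 FPKM in the WT livers and 32.01 and 33.6 FPKM in the MKRN1-null livers. Crtap, of the prolyl 3-hydroxylase complex, was the fourth of the largest changes in this list (-0.90, adjusted p = 0.0311). Among laminins and basement membrane linkers 8 of 10 fell, led by Nid1, nidogen-1, which ties laminin to type IV collagen (10.5 and 7.56 against 1.795 and 1.93 FPKM; -1.79, adjusted p = 0.0117), with Lamb3, Lamc3 and Lamb1 between -0.98 and -0.95.

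Among the other elastic fibre, proteoglycan and matricellular genes 12 of 17 fell, where 16.9% of all genes tested in liver fell. The largest change was in Spp1, osteopontin, made by bile duct cells, macrophages and activated stellate cells, at 242 and 201 FPKM in the WT livers and 34.4 and 29.7 FPKM in the MKRN1-null livers (log2 fold change -2.75, SE 0.13, adjusted p = 0.00576), followed by Smoc2 (-1.66), Sparcl1 (-1.41) and Mfap4 (-1.32). In TGF-beta signalling 6 of 20 fell. They included Tgfbi, a secreted TGF-beta target (47.8 and 32.001 against 14.1 and 16.5 FPKM; -1.31, adjusted p = 0.0235), the type II receptor Tgfbr2 (-1.08, adjusted p = 0.0235), Ltbp3, which holds latent TGF-beta (-0.93, adjusted p = 0.0234), and Nrros (-0.81, adjusted p = 0.0413). Of other proteases and inhibitors 5 of 8 fell, with Plat (-1.15), Mmp23 (-1.10), Adamts1 (-0.92) and Ctsk (-0.89) at the front. All 4 PDGF ligands fell, from -0.81 for Pdgfd to -0.55 for Pdgfa. Of 32 other collagens only 5 were expressed enough in liver to test, and 1 of the 5, Col16a1, fell (1.88 and 1.46 against 0.612 and 0.655 FPKM; -0.70, adjusted p = 0.0271).

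Markers of the cell types in the liver moved with these genes to differing degrees. Of 17 stellate cell markers, 3 of them members, 14 were tested and 6 fell, where 16.9% of all genes tested in liver fell. Among the 11 that are not members 5 fell, among them Rgs5, Colec11, Hgf and Cygb, with log2 fold changes between -1.23 and -0.92. Others did not pass. Colec10 was at 4.63 and 2.77 FPKM in the WT livers and 2.69 and 4.13 FPKM in the MKRN1-null livers, Vipr1 at 7.02 and 4.46 FPKM in the WT livers and 4.64 and 5.06 FPKM in the MKRN1-null livers and Ecm1 at 85.5 and 52.7 FPKM in the WT livers and 44.9 and 63.6 FPKM in the MKRN1-null livers. Summed over the list, stellate markers stood at 217 and 144 FPKM in the WT and 99.3 and 129.95 FPKM in the MKRN1-null livers, the groups being separate by a narrow margin.

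Markers of other cell types differed in direction and in the number called. The counts stand beside 16.9% of all genes tested in liver that fell and 2.51% that rose. The activated stellate cell or myofibroblast list (11 genes, 7 of them members) summed to 94.2 and 66.6 FPKM in the WT and 25.1 and 24.9 FPKM in the MKRN1-null livers, and the fibroblast and preadipocyte list (12 genes, 5 of them members) to 232 and 178 FPKM in the WT and 80.7 and 82.2 FPKM in the MKRN1-null livers. Of the 8 macrophage markers 4 fell, and their sum was 154 and 79.8 FPKM in the WT and 69.4 and 74.4 FPKM in the MKRN1-null livers, while the Kupffer cell gene Clec4f did not pass (42.1 and 11.4 against 24.8 and 29.3 FPKM). Of the 5 bile duct markers 4 fell, their sum going from 252 and 209 to 37.7 and 32.1 FPKM, most of it Spp1. Of the 7 endothelial markers 1 (Lyve1) fell, with sums of 100.2 and 62.1 FPKM in the WT and 48.6 and 61.8 FPKM in the MKRN1-null livers. The 7 hepatocyte markers, of which 2 rose, summed to 65596 and 58092 FPKM in the WT and 67204 and 68554 FPKM in the MKRN1-null livers.

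Of the remaining lists, vascular smooth muscle markers (7 genes, 2 of them members) summed to 20.001 and 12.9 FPKM in the WT and 6.52 and 7.73 FPKM in the MKRN1-null livers, and its defining genes Myh11 and Cnn1 were under 1 FPKM in every liver. Adipocyte markers (7 genes) summed to 189 and 161 FPKM in the WT and 46.3 and 26.7 FPKM in the MKRN1-null livers. Of the 4 tested 3 fell, where 16.9% of all genes fell, and the median log2 fold change over the 4 was -1.91. Mesothelial markers (5 genes) summed to 0.75 to 6.34 FPKM, skeletal muscle markers (11 genes) to 10.1 to 12.8, lymphocyte markers (7 genes) to 2.92 to 4.88 and keratinocyte markers (5 genes, 3 listed at 0 in every liver) to 0.68 to 0.79 FPKM. The part of these cell types in the lower matrix RNA was not tested.

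In subcutaneous fat the matrix genes were abundant, and for many of them the low MKRN1-null value was that of a single library. None of the 38 members tested passed an adjusted p under 0.05, as none of the 12164 genes did (0.0% in each direction), although 785 genes had an unadjusted p under 0.05. Under the looser rule 3 members were lower, Lum, Lox and Pdgfrb, against 5.36% of all genes, and none higher against 0.707%. The median log2 fold change was -0.73 over the 38 members and -0.20 over all genes tested. Both MKRN1-null libraries were below both WT libraries for 17 of the 38 members tested, against 36.1% of the genes tested, and above both for 0, against 9.03%. Among the members not tested, 1 had both MKRN1-null libraries above both WT libraries. That was Lrat, which is near 0 in fat.

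The 2 MKRN1-null fat libraries were unlike each other. In MKRN1-null replicate 1 the tested members lay at a median of -0.10 from the WT mean on the log2 scale, beside -0.04 for all genes tested, with 18 of 40 below both WT libraries, 10 above both and 12 between. In replicate 2, the library with skeletal muscle RNA, the median was -1.27 beside -0.38, and 37 of 40 were below both WT libraries. Without replicate 2, 0 of 38 members passed the adjusted threshold, where 0.0166% of 12052 genes were lower, and the looser rule again called Lum, Lox and Pdgfrb, against 4.21% of all genes. Without replicate 1, 30 of 38 were lower at the adjusted threshold, where 43.7% of 12004 genes were, and Des was higher, where 8.81% were. Des was also the sole member to pass without WT replicate 1, where 0.343% of all genes were higher, and without WT replicate 2, where 0.404% were. In MKRN1-null replicate 2 adipocyte markers summed to 16912 FPKM against 34975 to 41032 in the other 3, macrophage markers to 62.2 against 233 to 389, and its aligned sequence was the least at 5.72 Gb. How far the muscle RNA accounts for its matrix levels was not tested.

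**Figure D3:**
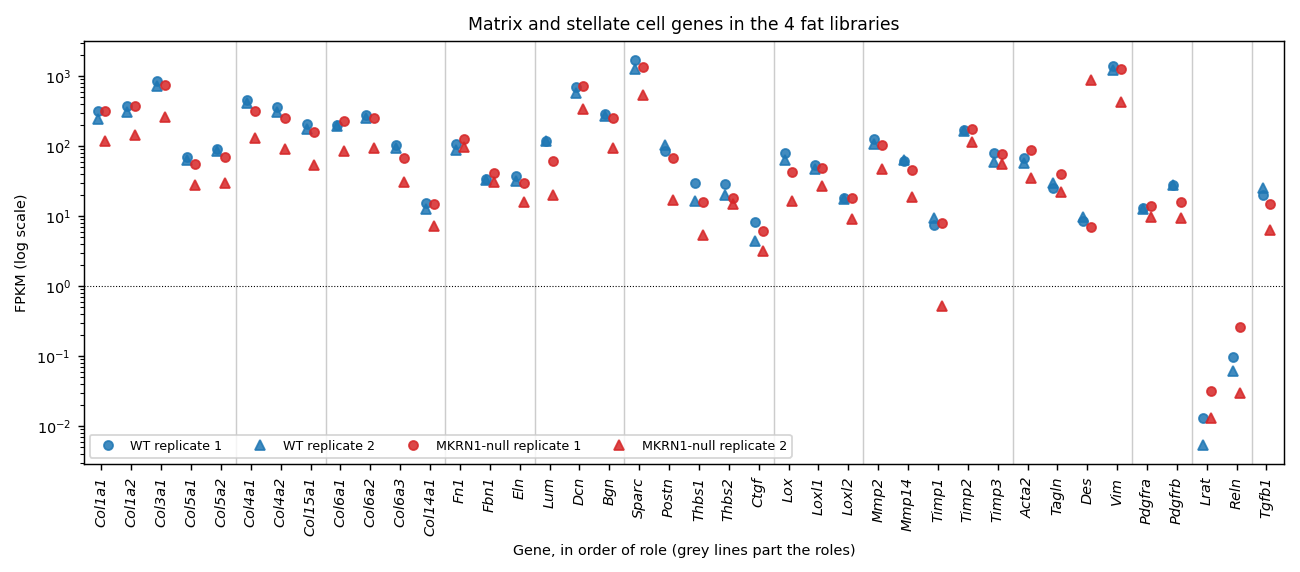
FPKM (log scale) of each of the 40 genes in the 4 fat libraries, with WT in blue, MKRN1-null in red, replicate 1 as circles and replicate 2 as triangles. The red triangles, MKRN1-null replicate 2, lie under the other 3 symbols for most genes, and far over them for Des at 873 FPKM.

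The members in fat followed several patterns. In the first, both MKRN1-null libraries were below both WT libraries. That order was found in 17 of the 38 members tested and in 36.1% of all genes tested in fat. Lum was at 117 and 118 FPKM in the WT fat libraries and 62.2 and 20.3 FPKM in the MKRN1-null fat libraries (log2 fold change -1.69, SE 0.56, adjusted p = 0.6802), Lox at 79.8 and 64.4 FPKM in the WT fat libraries and 43.4 and 16.5 FPKM in the MKRN1-null fat libraries (log2 fold change -1.38, SE 0.50, adjusted p = 0.6802), and Pdgfrb at 28.3 and 28.2 FPKM in the WT fat libraries and 15.8 and 9.35 FPKM in the MKRN1-null fat libraries (log2 fold change -1.15, SE 0.31, adjusted p = 0.6802). In these 3 genes replicate 1 was already under both WT libraries, and replicate 2 was lower again. Without replicate 2 their log2 fold changes were -0.91, -0.71 and -0.80, with adjusted p-values of 0.171, 0.238 and 0.171. Col6a3 (104 and 93.1 against 67.9 and 31.1 FPKM), Col4a1 (465 and 413 against 316 and 131 FPKM) and Mmp14 (62.3 and 64.7 against 45.8 and 18.6 FPKM) were ordered likewise without being called.

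In a second pattern, replicate 1 lay between the WT libraries or close to them. Col1a1 was at 321 and 248 FPKM in the WT fat libraries and 316 and 119 FPKM in the MKRN1-null fat libraries (log2 fold change -0.54, SE 0.55, adjusted p = 0.712), and without replicate 2 its log2 fold change was 0.16. Col1a2 was at 375 and 312 FPKM in the WT fat libraries and 370.5 and 144 FPKM in the MKRN1-null fat libraries, Col3a1 at 865 and 736 FPKM in the WT fat libraries and 757 and 266 FPKM in the MKRN1-null fat libraries and Dcn at 692 and 576 FPKM in the WT fat libraries and 717 and 344 FPKM in the MKRN1-null fat libraries. In each the sole low value was that of replicate 2. Timp1 was at 7.45 and 9.56 FPKM in the WT fat libraries and 7.89 and 0.515 FPKM in the MKRN1-null fat libraries, replicate 2 again standing alone. In Acta2 (68.9 and 56.9 against 88.0 and 34.9 FPKM) and Tagln (25.4 and 29.9 against 40.4 and 22.2 FPKM) replicate 1 was above both WT libraries and replicate 2 below both.

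In 3 members, Fn1, Des and Lrat, replicate 2 was not below both WT libraries, and in Fbn1 it was so only narrowly. Fn1 was at 107 and 87.2 FPKM in the WT fat libraries and 126 and 98.1 FPKM in the MKRN1-null fat libraries (log2 fold change 0.20, SE 0.29, adjusted p = 0.784) and Fbn1 at 34.4 and 32.4 FPKM in the WT fat libraries and 41.8 and 31.3 FPKM in the MKRN1-null fat libraries (log2 fold change 0.11, SE 0.26, adjusted p = 0.8597), with genotypes overlapping in both. Des, which skeletal muscle expresses strongly, was at 8.49 and 9.64 FPKM in the WT fat libraries and 7.09 and 873 FPKM in the MKRN1-null fat libraries, beside Acta1, skeletal muscle actin, at 20.3 and 56.6 FPKM in the WT fat libraries and 27.3 and 18463 FPKM in the MKRN1-null fat libraries. Lrat and Reln were under 1 FPKM in every fat library and were not tested (0.0131 and 0.00541 against 0.0319 and 0.0132 FPKM, and 0.0973 and 0.0613 against 0.264 and 0.0296 FPKM). Of the 166 other pathway genes 123 were tested in fat and none passed the adjusted threshold. Under the looser rule 20 were lower, against 5.36% of all genes, and 3 higher, against 0.707%. The 3 were led by Timp4, a TIMP abundant in fat (60.7 and 54.8 against 153 and 89.6 FPKM), and Thbs4 (0.2201 and 0.146 against 1.33 and 1.06 FPKM), and the 20 included Col12a1 (6.14 and 4.27 against 2.697 and 0.988 FPKM), Serpinh1 (231 and 457 against 167 and 75.5 FPKM) and Ltbp3 (168 and 149.7 against 91.3 and 51.4 FPKM).

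Marker sums in fat moved mainly with replicate 2. Stellate cell markers summed to 284 and 284 FPKM in the WT and 309.8 and 1034 FPKM in the MKRN1-null fat libraries, the last value owing 873 FPKM to Des, and the fibroblast and preadipocyte list to 2737 and 2543 FPKM in the WT and 2695 and 1362 FPKM in the MKRN1-null. The activated stellate cell or myofibroblast list does not hold Des. It summed to 1824 and 1546 FPKM in the WT and 1706 and 2209.5 FPKM in the MKRN1-null. In MKRN1-null replicate 2 its members lay below both WT libraries, so the higher sum there came from its other genes. Endothelium summed to 162 and 207 FPKM in the WT and 129 and 71.8 FPKM in the MKRN1-null. Vascular smooth muscle stood at 116 and 110.1 FPKM in the WT and 147 and 80.01 FPKM in the MKRN1-null. Keratinocyte markers, which would mark adhering skin, summed to 1.77 to 4.14 FPKM, mesothelium to 0.96 to 2.61, bile duct epithelium to 1.82 to 8.19, lymphocytes to 1.86 to 11.0 and hepatocyte markers to 669 to 1329.5 FPKM.

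Whether the genotype difference itself was unlike in the 2 tissues was tested with an interaction term over all 8 libraries. None of 9917 genes passed the adjusted threshold (0.0%), while 766 had an unadjusted p under 0.05, and 0 of 35 members passed. Under the looser rule 6 members had a higher value in fat than in liver, against 3.9% of all genes, and none a lower value, against 2.57%. They were Col1a1, Col1a2, Ctgf, Timp2, Timp3 and Tagln, all lower in the MKRN1-null livers. None of them was called under that rule without WT liver replicate 1, WT fat replicate 2 or either MKRN1-null liver, and 25 members were without MKRN1-null fat replicate 2, against 10.3% of all genes. Without MKRN1-null fat replicate 2, 10 of 35 members passed the adjusted threshold with a higher value in fat, against 2.82% of 9882 genes, among them Col1a1 (2.45), Col3a1 (2.23) and Col1a2 (2.12, log2 scale). Without MKRN1-null fat replicate 1, 1 member, Des, passed with a higher value in fat (9.92% of all genes) and 2, Col5a2 and Mmp14, with a lower value (16.9%). Lum, called under the looser rule in both tissues, had an interaction value of 0.21 (SE 0.65), which was 0.99 without MKRN1-null fat replicate 2 and -0.58 without MKRN1-null fat replicate 1, both past the looser rule.

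**Figure D4:**
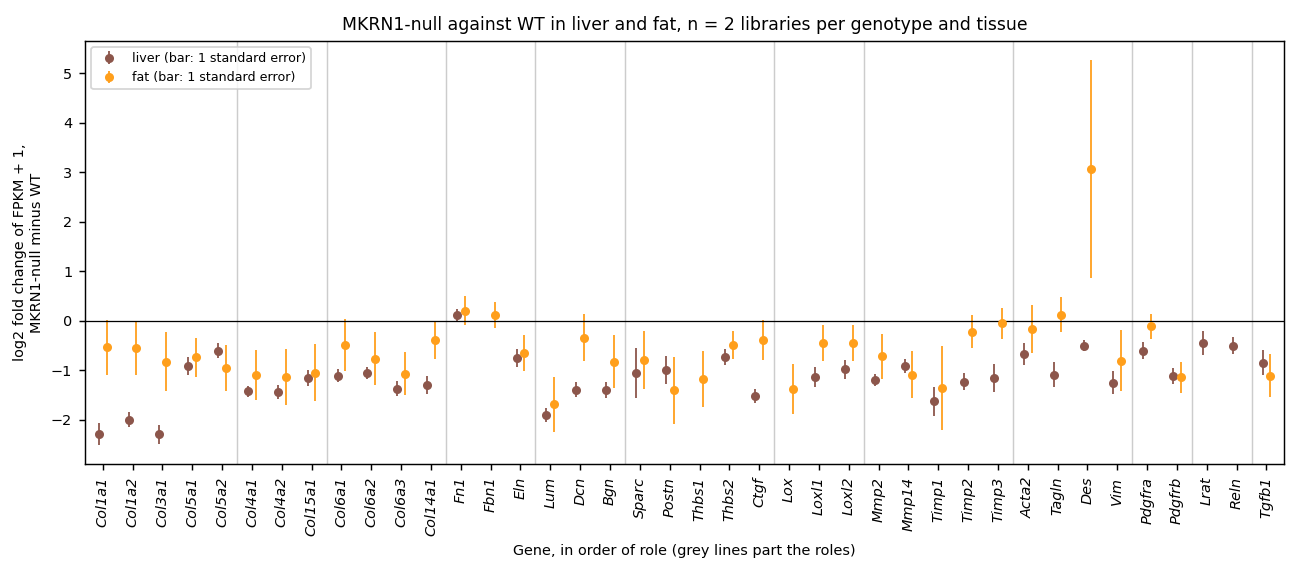
Log2 fold change of FPKM + 1, MKRN1-null minus WT, for each gene tested in liver (brown, 37 genes) and fat (orange, 38 genes), bars giving 1 SE from limma with n = 2 libraries per genotype and tissue. Liver points lie under 0 for every gene tested but Fn1, and the longest liver bar is that of Sparc. For each gene tested in both tissues the fat bar is the longer, the longest being that of Des.

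The 2 WT tissues show where these genes are normally used in obese mice. Of the 40 members 35 were higher in WT fat than in WT liver at the adjusted threshold, where 62.3% of 12799 genes were, and 3 were lower, where 17.9% were. The median log2 difference, fat minus liver, was 3.79 for the members and 0.59 for all genes. In WT fat 15 members reached at least 100 FPKM in both libraries, and in WT liver 2 did, Fn1 and Dcn. Sparc at 1710.5 and 1282 FPKM, Vim at 1393 and 1212 FPKM and Col3a1 at 865 and 736 FPKM headed the order in fat. The first 2 do not differ beyond the spread between their libraries. Among the members higher in fat the widest ratio was that of Lox, at 79.8 and 64.4 FPKM in fat against 0.270 and 0.302 FPKM in liver, and Col15a1 followed at 100.4-fold.

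The 3 members that were lower in fat were Fn1 (log2 difference -1.11, adjusted p = 0.00171), Lrat (-2.32) and Reln (-2.99). Lrat was at 5.08 and 3.15 FPKM in WT liver and 0.013 and 0.0054 in WT fat. Col14a1 (-0.12, SE 0.20) and Ctgf (-0.09, SE 0.28) did not pass and were the members closest in level between the tissues. Summed over the 40 genes, the members took 0.151% and 0.109% of all FPKM in the WT livers, 0.0707% and 0.06998% in the MKRN1-null livers, 1.82% and 1.49% in WT fat, and 1.48% and 0.741% in MKRN1-null fat.

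**Figure D5:**
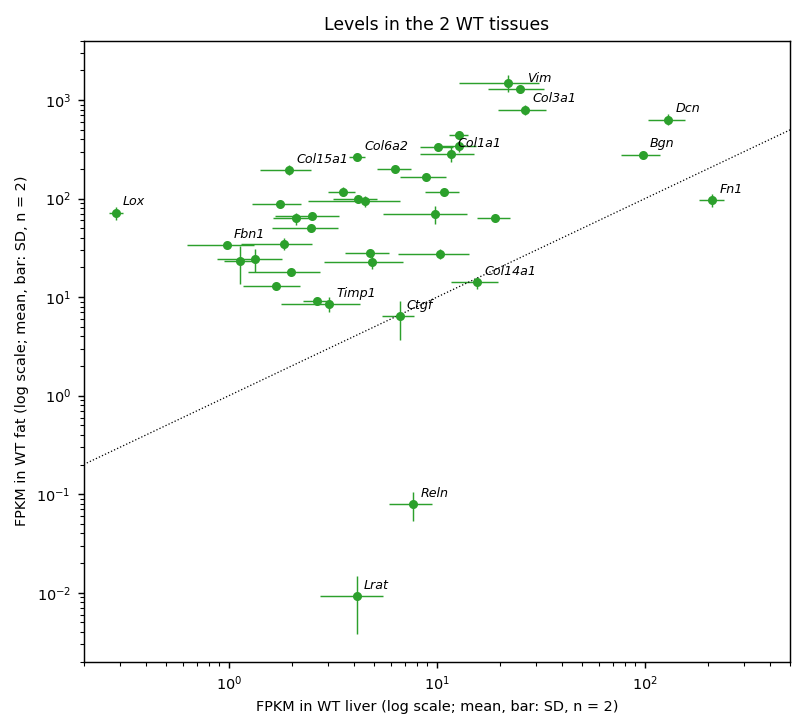
Mean FPKM of the 40 genes in WT liver (x axis) and WT fat (y axis), both on log scales, bars giving the SD over 2 libraries and the dotted line marking equal levels. Most genes lie above the line, Col14a1 and Ctgf on it, and Fn1, Lrat and Reln below it.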

How the data were processed

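RNA-seq of liver and subcutaneous fat was analysed from 8 annotated transcript tables, with groups taken from the labels. Per the file headers and the submitters' processing notes, the authors aligned reads to mm10 with HISAT2 and quantified RefSeq transcripts with StringTie (1.3.3b), and SAMtools is also named (with no version given for the others). The paper's methods describe other tools. Deposited FPKM, TPM and read coverage per transcript were read from the tables, and FPKM was summed per gene. No counts were used. A Python (3.11.15) script matched gene IDs to symbols (70 had none). limma (3.58.1, R 4.3.3) was fitted with trend to log2(FPKM + 1) over genes with FPKM of at least 1 in at least 2 of 4 libraries, per tissue, for the interaction and for the WT tissues, with Benjamini-Hochberg adjustment and two-sided tests. The fits were tested on simulated data. The labels do not say that replicates are separate animals, so p-values measure the spread between these libraries, which may be technical. Alternatives were a pseudocount of 0.1, TPM, no filter, a filter at FPKM 5, median-of-ratios and quantile scaling, no trend, a replicate block, a fit of all 8 libraries, and leaving out each library. Named were all 40 members, Mkrn1, up to 4 genes with the largest change per pathway list, markers, and Vtn and Tgfb3 for their direction. The members and lists were chosen with earlier results of these data known. Exonic overlaps used the deposited annotation.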

Additional observations from a re-analysis of the deposited data

Results flagged for a closer look

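An interaction term called 6 of 35 members at an unadjusted p of at most 0.05 with a log2 difference of at least 0.58. All 6 had a higher value in fat, where 3.9% of all genes did. The values, fat minus liver on the log2 scale, were 1.75 for Col1a1 (adjusted p = 0.588), 1.44 for Col1a2 (adjusted p = 0.633), 1.14 for Ctgf (adjusted p = 0.643), 1.01 for Timp2 (adjusted p = 0.574), 1.11 for Timp3 (adjusted p = 0.619) and 1.21 for Tagln (adjusted p = 0.614). None passed limma's adjusted threshold over 9917 genes. None was called at this level without WT liver replicate 1, WT fat replicate 2 or either MKRN1-null liver. In these genes both MKRN1-null livers were below both WT livers, as for 57.5% of the genes tested in liver, whereas the fat genotypes overlapped. The 6 values ran from 0.71 to 1.05 without MKRN1-null fat replicate 1 and from 1.31 to 2.45 without MKRN1-null fat replicate 2.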

How the results depend on the processing

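With 2 libraries a group, a single library decides many calls, and an exact permutation test of 1 gene could not go below p = 0.333. Depth is known only as aligned bases, and members under about 1 FPKM rest on few reads. The count of 26 members lower in liver was 14 with a filter at FPKM 5 (fewer genes tested), 0 with all 8 libraries in one fit, and 0 to 23 when a liver library was left out. The 32 under the looser rule became 16 at FPKM 5 and 20 to 31 on leaving out a library. The liver median of -1.12 was -1.43 with a pseudocount of 0.1, -1.29 with TPM, -1.30 at FPKM 5, -0.98 with median-of-ratios scaling and -0.88 with quantile normalization, and -1.44 to -0.96 on leaving out a library, while the last 2 scalings moved the median of all genes from -0.17 to -0.01 and 0.03. The filter at FPKM 5 left 19 members, so its 14 stood beside 1066 of 6712 genes that fell. In the main fit 26 of 37 members stood beside 1834 of 10822 genes. The adjusted count was 22 of 37 with median-of-ratios scaling, where 857 of all genes fell. It was 19 of 37 with quantile normalization, where 680 did. The cause of these shifts in counts and medians was not tested beyond the construction of each alternative.

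In fat, the count past the adjusted threshold (0) was 3 with the replicate block and 0 to 31 on leaving out a library, and that under the looser rule (3) was 5 with median-of-ratios scaling, 10 with the replicate block, 10 with all 8 libraries in one fit and 3 to 30 on leaving out a library. Of all 12164 genes the looser rule called 652 lower in the main fit and 516 with median-of-ratios scaling. It called 1119 lower with the replicate block and 1268 with all 8 libraries in one fit. In these fits all members called were lower, apart from 1 that was higher with the block. The highest counts on leaving out a library came without MKRN1-null replicate 1, where calls over all genes rose as well, as given above. The fat median of -0.73 ran from -1.27 to -0.10. The interaction count (0) ran from 0 to 10, and the 38 members called between the WT tissues from 36 to 39. Mkrn1 in fat (-2.02) passed with the replicate block (-2.02, adjusted p = 2.09e-05) and without WT replicate 1 or MKRN1-null replicate 1 (adjusted p = 0.048 and 0.00367), and on leaving out libraries ran from -2.28 to -1.77. In liver it ran from -1.74 to -1.48 and missed without MKRN1-null replicate 2 (adjusted p = 0.0548). Numbers in the labels are shared between genotypes, but the deviations of same-numbered libraries correlated by only 0.00666 in liver and 0.113 in fat. Nothing in the labels ties them to a litter or day. Numbers are also shared between tissues, where the deviations of liver and fat correlated by 0.0598 in WT and 0.0652 in MKRN1-null. The labels do not say whether liver and fat of the same number came from the same mouse. The fits over both tissues treated all libraries as independent. The block kept 24 of the 26 liver calls.

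Signs turned in fat for Timp2 (0.0083), Timp3 (0.17), Acta2 (0.056) and Pdgfra (0.094) with median-of-ratios scaling, and for Timp3 (0.081) and Pdgfra (0.058) with quantile normalization. On leaving out a fat library, the fat values ran from -1.24 to 0.16 for Col1a1, -1.24 to 0.12 for Col1a2, -1.19 to 0.19 for Col6a1, -0.88 to 0.094 for Col14a1, -0.090 to 0.32 for Fbn1, -0.87 to 0.18 for Dcn, -0.78 to 0.0079 for Ctgf, -0.92 to 0.0098 for Loxl2, -0.52 to 0.074 for Timp2, -0.28 to 0.17 for Timp3, -0.82 to 0.48 for Acta2, -0.30 to 0.53 for Tagln, -0.31 to 6.44 for Des and -0.36 to 0.12 for Pdgfra, and on leaving out a liver library Fn1 ran from -0.029 to 0.25.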

Other observations

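The 2 annotated transcripts of Col6a3, a chain of type VI collagen, were unequally low in the MKRN1-null livers. The shorter (9020 bases), which was the main form in fat, was at 2.32 and 2.05 FPKM in the WT livers and 0.0949 and 0.0153 FPKM in the MKRN1-null livers. The longer (10841 bases) was at 2.52 and 1.41 FPKM in the WT livers and 0.857 and 0.975 FPKM in the MKRN1-null livers. In fat the shorter was at 89.6, 76.1, 55.9 and 27.6 FPKM (WT replicates 1 and 2, then MKRN1-null replicates 1 and 2) and the longer at 14.3, 16.97, 11.99 and 3.52 FPKM. The division of reads between transcripts is an estimate at low coverage, the transcript was chosen after its values were seen, and no test was made.

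Timp4 is among the genes outside the members that went against the general direction. Others were Vtn in liver (997 and 1051 against 1218 and 1296 FPKM, log2 fold change 0.30, limma adjusted p = 0.0912) and Tgfb3 in fat (5.05 and 4.34 against 7.96 and 9.28 FPKM, log2 fold change 0.76, limma adjusted p = 0.6802). Timp4 had a log2 fold change of 1.01 in fat (adjusted p = 0.6802), which did not pass limma's adjusted threshold. Clec4f, a Kupffer cell receptor, had a log2 fold change of 0.27 in liver and did not pass either (adjusted p = 0.761). Both MKRN1-null livers lay between the WT livers for Clec4f, so it showed no clear direction.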
